A study of Drosophila melanogaster with 4 samples.

Results

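Gene expression in Kc167 cells exposed to gamma rays was compared with that in mock-treated cells, in the absence of hormone, over every transcript that gave a clear signal on at least 1 of the 2 arrays. Kc167 is an established female Drosophila melanogaster line derived from embryos and kept in serum-free medium. Irradiated cells were cultured for 72 h, received 280 Gy and rested for 90 min before total RNA was taken. Control cells had the same 72 h of culture, a mock treatment and the same 90 min of rest, and neither culture received ecdysone or any analog. A second pair, used below for comparison, had 10 µM muristerone A, an ecdysone analog, in both cultures, and was either irradiated or mock-treated. Each condition was measured once, on 1 Affymetrix DrosGenome1 array, so no value has a replicate, no difference has a test, and all sizes are descriptions of these arrays. The labels do not say how many dishes went into a sample.

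The comparison covers 1904 of 13966 probe sets (13.6%), selected on their measured signal, a MAS5 value of at least 500 units on the irradiated array, the control array or both. They stand for 1566 of the 10844 genes that the platform names by 1 symbol. MAS5 signal is a linear measure of brightness of a probe set, and 500 units lies well above the array medians of 118.7 units for irradiated and 121.4 units for control. Of the 1904, 1003 reached 500 units on both arrays, 428 on the irradiated array alone and 473 on the control array alone. Log2 ratios are irradiated over control, with signals below 119 units raised to 119, and a positive value means higher in irradiated cells. Where the lower signal lay at or under this floor, the fold is given as "at least". Just inside the signal limit were Rtc1, CG12538 and CG15353, whose brighter array read 500 to 500.2 units. Just outside it were CG11425, CG31650 and a probe set shared by CG6299 and CG6294, at 499.7 to 499.9 units. The signals on these 2 arrays chose the probe sets, so the ratios, counts and medians below describe that choice and support nothing beyond it. A transcript that passed on 1 array alone was high there by selection.

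Ionising radiation breaks both strands of DNA and forms reactive oxygen species. In Drosophila the kinases ATM and ATR signal such breaks to the checkpoint kinases and to p53, which switches on repair genes and, in many tissues, the cell death genes of the reaper region. Oxidative and electrophilic stress acts through the transcription factor CncC, held in check by Keap1, whose best known targets are glutathione S-transferases and other detoxifying enzymes. Kc167 cells have features of blood cells, and their RNA is that of a bulk culture, in which fewer cells of a type and less RNA per cell cannot be told apart.

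Most transcripts gave close signals on both arrays. Of the 1904 probe sets, 1383 (72.6%) lay within 2-fold, 270 (14.2%) were at least 2-fold higher in irradiated cells and 251 (13.2%) at least 2-fold lower. The median log2 ratio was 0.07, and the ratios ran from -3.003 to 3.33. The balance of the 2 counts depended on the centring. With the ratios centred on a smooth curve through these 1904 probe sets, 286 were 2-fold higher and 87 2-fold lower (76.7% of the calls higher), and with the curve through all probe sets above the floor 263 and 252 (51.1% higher), against 51.8% without centring. The probe set of nuf, at exactly 1.00, was the nearest inside the 2-fold line for higher signals, and that of CG7465 at 0.999 the nearest outside. For lower signals pxb (-1.0005) was just inside and CG30431 (-0.996) just outside. The size of the scatter depended strongly on brightness. Among 1302 probe sets whose brighter array read from 500 to under 1000 units, 16.4% were 2-fold higher and 17.9% 2-fold lower, and the ratios had an SD of 1.12. Among 353 probe sets from 1000 to under 2000 units the shares were 9.63% and 4.53%. Among 127 from 2000 to under 4000 units they were 11.0% and 0.787%, and among 122 at 4000 units or more 7.38% and 0.82%, with an SD of 0.50. Of the 251 lower probe sets 233 were in the dimmest of these classes, as were 213 of the 270 higher ones. In each brighter class higher ones outnumbered lower ones in the deposited scaling (34 and 16, 14 and 1, 9 and 1).

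**Figure D1:**
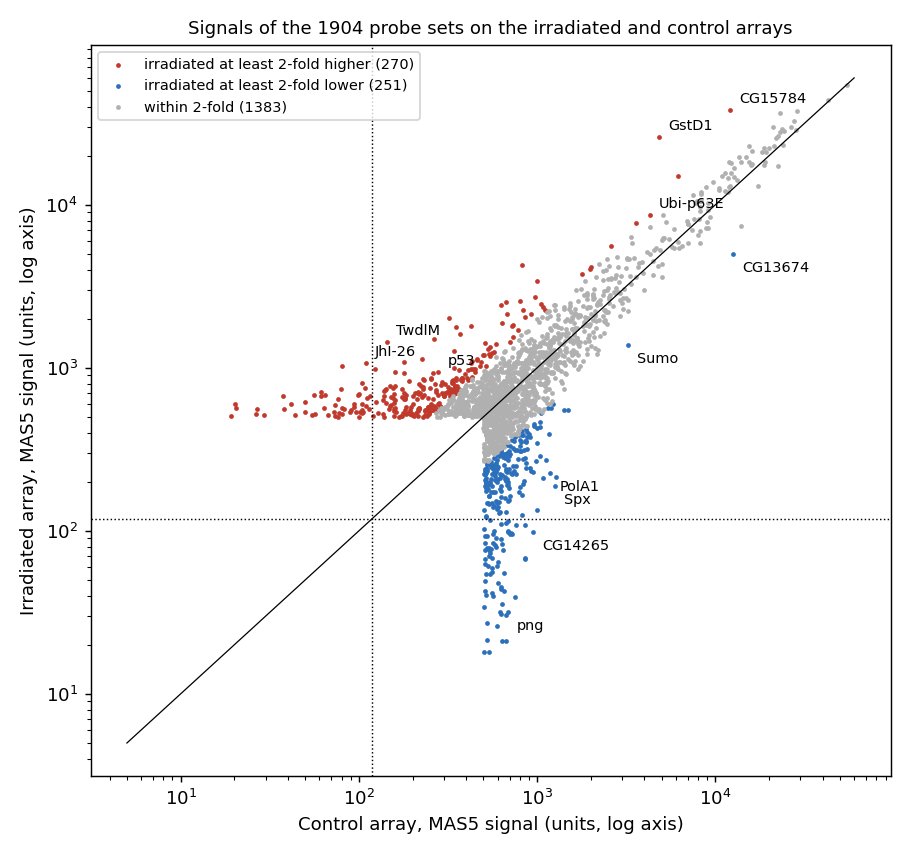
Signal of each of the 1904 probe sets on the irradiated array (vertical, log axis) against the control array (horizontal, log axis), in MAS5 units. Points above the diagonal are higher in irradiated cells, dotted lines mark the floor of 119 units, and the empty lower left corner is the part below 500 units on both arrays. Among the brightest points, GstD1 and CG15784 stand clear above the diagonal, and CG13674 and Sumo below it.

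Probe sets that share a gene give a measure of the scatter within an array. For 35 genes with more than 1 probe set in the comparison, the ratios of the 2 brightest differed by a median of 0.51 on the log2 scale and by up to 2.63. They lay within 0.5 of each other in 17 genes and had opposite signs in 14. In 10 of these genes at least 1 of the 2 passed 2-fold, and in 3 both did so in the same direction. Three-prime to five-prime signal ratios of the control transcripts, a gauge of RNA integrity and labelling, were higher on the irradiated array for actin (1.90 in irradiated and 0.820 in control), GAPDH (2.80 in irradiated and 1.43 in control) and eIF-4a (1.49 in irradiated and 1.01 in control). Per the file headers the chips shared 1 lot and 1 scan day. The irradiated array was washed in module 1 and the control array in module 3 of the same station. In the ecdysone-treated pair the combined array was washed in module 2 and the ecdysone array in module 4, and the 2 irradiated arrays were scanned before the 2 others. The GAPDH ratio was again higher on the irradiated side (3.51 in the combined treatment and 1.76 with ecdysone alone), while those of actin (0.723 in the combined treatment and 1.20 with ecdysone alone) and eIF-4a (0.790 in the combined treatment and 1.14 with ecdysone alone) were lower. Scan order and the GAPDH ratio therefore move with irradiation in both pairs, and their part in what the pairs share was not tested. With 1 array a condition, module, RNA quality and culture cannot be told apart from irradiation.

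The largest differences were in transcripts near the background of 1 array. The 15 genes with the highest ratios were each at least 5.69-fold higher in irradiated cells, and for 10 of them the control signal was at or under the floor, so that their folds have no upper end. TwdlM, of the Tweedle family of cuticle proteins, gave 1435.5 units in irradiated and 143.0 units in control cells, a log2 ratio of 3.33. Its probe set is of a kind that the array design marks as incomplete, and the other probe set of TwdlM, below the signal limit, read 320.6 units in irradiated and 335.4 units in control cells. The 2 probe sets of TwdlM thus disagreed. JhI-26, named for induction by juvenile hormone, gave 1073.2 units in irradiated and 109.5 units in control cells, a log2 ratio of at least 3.17. CR14798, a pseudogene in the annotation, gave 1028.8 units in irradiated and 80.3 units in control cells, and eca, which encodes a p24 protein of vesicle transport, 989.2 units in irradiated and 123.5 units in control cells. The other probe set of eca lay below the limit and pointed the other way, with 88.1 units in irradiated and 160.0 units in control cells.

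Among the rest of these 15 genes, Wdr82, a subunit of the complex that methylates histone H3 at promoters, was the brightest, with 2021.7 units in irradiated and 321.7 units in control cells (log2 ratio 2.65). Mtpbeta, a subunit of the mitochondrial enzyme of fatty acid oxidation, gave 1081.3 units in irradiated and 178.5 units in control cells (2.60). HBS1, a GTPase that rescues stalled ribosomes, gave 679.1 units in irradiated and 64.8 units in control cells. Its second probe set pointed the same way below the limit, with 288.4 units in irradiated and 95.6 units in control cells. Trf2, a relative of the TATA-binding protein, read 676.9 units in irradiated and 99.3 units in control cells, at a probe set marked as shared between transcripts. The gene of UDP-glucose dehydrogenase, sgl, read 679.7 units in irradiated and 56.1 units in control cells. The remaining ones, CG6659, CG17834, CG9444, GstE3, RAF2 and CG9547, had log2 ratios of at least 2.54, each a lower bound except that of RAF2 (2.57). Of the 15, 7 were also at least 2-fold higher with irradiation in the ecdysone-treated pair and none was 2-fold lower there. In that pair 14.6% of all 1566 genes were 2-fold higher and 9.13% 2-fold lower. The 7 were JhI-26, CG17834, Wdr82, CG9444, RAF2, HBS1 and Trf2. Further probe sets of RAF2 and CG17834, below the limit, did not show the difference, with 88.4 units in irradiated and 168.1 units in control cells for RAF2, and 8.5 units in irradiated and 8.8 units in control cells for CG17834. By contrast, sgl was below the floor on both arrays of that pair and eca differed by -0.10.

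The 15 genes with the lowest ratios were each at least 5.65-fold lower in irradiated cells, and for 12 of them the irradiated signal lay under the floor, so that those folds are lower bounds. CG14265 gave 98.1 units in irradiated and 953.8 units in control cells, a log2 ratio of at most -3.003. Spn42Dc, which encodes a serpin, a protease inhibitor, gave 108.5 units in irradiated and 853.6 units in control cells (at most -2.84). Only 2 of the 15 reached 1000 units in control cells. These were Spx, the homolog of a U2 snRNP splicing protein, with 187.7 units in irradiated and 1256.3 units in control cells (-2.74), and CG34205, with 213.2 units in irradiated and 1269.1 units in control cells (-2.57). NHP2, a protein of the box H/ACA ribonucleoproteins that guide pseudouridylation, gave 68.1 units in irradiated and 852.1 units in control cells. Galt, an enzyme of galactose breakdown, gave 124.6 units in irradiated and 822.0 units in control cells. The circadian repressor gene cwo gave 96.8 units in irradiated and 711.4 units in control cells, but its second probe set, below the limit, read 322.0 units in irradiated and 123.5 units in control cells. The gene of the Aurora A activator Bora gave 95.5 units in irradiated and 707.0 units in control cells, and png, a kinase of egg activation, 32.0 units in irradiated and 683.7 units in control cells. CG6472, CG2187, CRAT, CG14445, CG32645 and Npc2c completed the group, each with the irradiated signal under the floor and a log2 ratio of at most -2.50. In the ecdysone-treated pair 3 of the 15 were also at least 2-fold lower (Spn42Dc, bora and Npc2c) and 2 were at least 2-fold higher (CRAT and png). Of all 1566 genes 9.13% were 2-fold lower and 14.6% 2-fold higher in that pair.

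**Figure D2:**
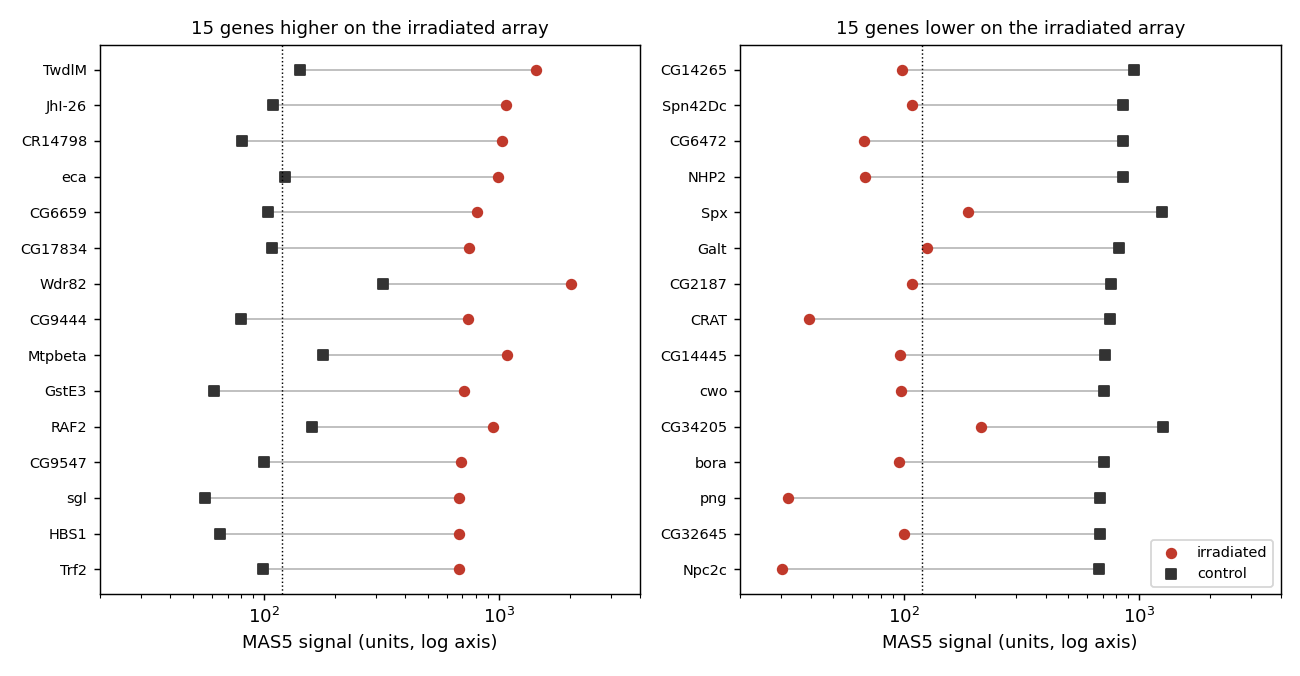
MAS5 signals (log axis) of the 15 genes with the highest and the 15 with the lowest ratio, with irradiated as circles, control as squares and the floor of 119 units dotted. On 22 of the 30 lines the dimmer symbol lies left of the floor, so those folds are lower bounds.

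Abundant transcripts were steadier, and the balance of the few past 2-fold depended on the scaling. Of 263 genes with at least 1000 units on both arrays, 7 (2.66%) were at least 2-fold higher and 2 (0.76%) at least 2-fold lower, with a median log2 ratio of 0.14 and an SD of 0.44. After quantile normalization 3 were 2-fold higher and 3 2-fold lower, so that the share of higher ones among them was 50.0%, against 77.8% in the deposited signals. DptB (0.93), Nfs1 (0.82), Prosalpha4 (0.85) and Ubi-p63E (0.87) then lay under 2-fold, and SC35 (-1.02) was past it. GstD1, the most studied Drosophila glutathione S-transferase, gave 25936.2 units in irradiated and 4855.7 units in control cells, a log2 ratio of 2.42. CG15784, to which no function is assigned here, gave 38250.6 units in irradiated and 12039.2 units in control cells (1.67). The polyubiquitin genes followed. Ubi-p5E gave 15109.9 units in irradiated and 6184.8 units in control cells (1.29), at a probe set marked as matching a gene family, and Ubi-p63E 8634.7 units in irradiated and 4273.4 units in control cells (1.01). Since polyubiquitin repeats are alike, these 2 probe sets may share signal. DptB, an antimicrobial peptide of the diptericin family, gave 7762.9 units in irradiated and 3563.4 units in control cells (1.12). Nfs1, the cysteine desulfurase of iron-sulfur cluster assembly, gave 3763.6 units in irradiated and 1786.5 units in control cells (1.07), and Prosalpha4, a subunit of the proteasome core, 2253.2 units in irradiated and 1113.2 units in control cells (1.02). Just under 2-fold lay Glo1, a glyoxalase that clears methylglyoxal, with 1980.0 units in irradiated and 1004.1 units in control cells (0.98), followed by CG15098 (0.97) and CG18547 (0.95).

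In the opposite direction CG13674 gave 4963.2 units in irradiated and 12568.2 units in control cells (-1.34). The call rests on 1 probe set of reduced specificity, since the second one of CG13674 read 1811.7 units in irradiated and 1802.7 units in control cells. Sumo, which encodes the small ubiquitin-like modifier, gave 1375.6 units in irradiated and 3230.9 units in control cells (-1.23). The other abundant transcripts with low ratios stayed within 2-fold. The SR splicing factor genes SC35 (1210.3 units in irradiated and 2169.7 units in control cells, log2 ratio -0.84) and B52 (1065.4 units in irradiated and 1587.2 units in control cells, -0.58) were among them. So were spi, the gene of the EGF receptor ligand Spitz (-0.71), ND-B16.6 of respiratory complex I (-0.68), bel, a DEAD-box helicase of translation (-0.55), the nicotinic receptor subunit nAChRbeta3 (-0.57), Clic (-0.54) and CG7970 (-0.77).

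Among glutathione S-transferases, GstD1 and GstE1 were 2-fold higher in irradiated cells with both arrays above the limit, and GstE3, GstE6 and GstD2 passed it on the irradiated array alone. Of 30 listed enzymes with a probe set of their own, 10 reached 500 units, 5 of these were at least 2-fold higher in irradiated cells, none was 2-fold lower, and all 10 lay above 0. Over all 1566 genes with 1 symbol, 14.9% were 2-fold higher and 14.1% 2-fold lower. The median log2 ratio was 1.29, against 0.06 over all 1566 genes. For the 6 enzymes that reached 500 units on both arrays it was 0.74, against 0.10 over the 788 genes that did so, and GstD7 was the fourth that passed on the irradiated array alone. After GstD1 the largest were GstE3, with 711.9 units in irradiated and 61.2 units in control cells (at least 2.58), GstE6, with 1606.1 units in irradiated and 368.4 units in control cells (2.12), and GstE1, with 2414.9 units in irradiated and 628.3 units in control cells (1.94). All 3 belong to the epsilon class, whose genes lie side by side and are alike in sequence, so some signal may be shared between them. GstD2 of the delta class gave 760.7 units in irradiated and 227.9 units in control cells (1.74). Within 2-fold were GstD3 (2257.5 units in irradiated and 1258.1 units in control cells, 0.84), the microsomal enzyme gene Mgstl (11531.3 units in irradiated and 7447.8 units in control cells, 0.63), GstO3 (0.54), GstD7 (0.24) and GstO2 (0.11). Other probe sets of GstO2, below the limit, differed more. They read 389.8 units in irradiated and 18.8 units in control cells, and 181.4 units in irradiated and 11.2 units in control cells. Of the 20 listed enzymes below 500 units 10 read higher and 10 lower in irradiated cells. GstT4, for example, read 21.5 units in irradiated and 234.5 units in control cells, GstD8 412.0 units in irradiated and 208.7 units in control cells, and GstE4 485.8 units in irradiated and 496.1 units in control cells.

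The ecdysone-treated pair gave a partly different order for these enzymes. GstD1 read 13040.0 units in the combined treatment and 3918.5 units with ecdysone alone (1.73), GstE6 2053.8 units in the combined treatment and 903.5 units with ecdysone alone (1.18), and GstD3 3421.6 units in the combined treatment and 1383.7 units with ecdysone alone (1.31). GstD2, on the other hand, read 303.6 units in the combined treatment and 426.1 units with ecdysone alone (-0.49), and GstO3 read 4682.4 units in the combined treatment and 6279.5 units with ecdysone alone (-0.42). Of the 10, 3 were 2-fold higher and none 2-fold lower in that pair, where 14.6% of all 1566 genes were 2-fold higher and 9.13% 2-fold lower.

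Other antioxidant genes differed less. Of 12 genes in the list, 2 were at least 2-fold higher and none 2-fold lower, 10 lay above 0, and the median was 0.58. The share of higher ones was near the 14.9% of all 1566 genes. Both higher ones passed the limit on the irradiated array alone, and none of the 8 genes above it on both arrays was past 2-fold. Trx2, a thioredoxin that reduces protein disulfides, gave 1807.9 units in irradiated and 424.1 units in control cells (2.09). The gene ref(2)P, the Drosophila p62 that carries ubiquitinated cargo to autophagy, gave 861.9 units in irradiated and 380.6 units in control cells (1.18). Gtpx, a thioredoxin-dependent peroxidase gene, gave 7269.6 units in irradiated and 4298.9 units in control cells (0.76), and Gclc, the catalytic subunit of glutathione synthesis, 672.3 units in irradiated and 421.2 units in control cells (0.67). The ferritin genes Fer1HCH (0.55) and Fer2LCH (0.60) and Trxr1, which recharges thioredoxin (0.60), lay close together. The regulator cnc itself read 922.4 units in irradiated and 846.0 units in control cells (0.12). Among 5 cytochrome P450 genes Cyp6d4 was 2-fold higher, with 851.6 units in irradiated and 380.1 units in control cells (1.16), and Cyp4e2 (0.97) and Cyp9f2 (0.74) lay under 2-fold.

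In the list of p53-dependent radiation response genes, p53 and rad50 were 2-fold higher and Traf4 2-fold lower. Of 14 listed genes with their own probe set, 6 reached 500 units, 2 of which were at least 2-fold higher and 1 at least 2-fold lower, with a median of 0.70. All 3 of these passed the limit on 1 array alone, and the 2 genes above it on both, mre11 and Gadd45, lay within 2-fold. Over all 1566 genes 14.9% were 2-fold higher and 14.1% 2-fold lower. The p53 transcript gave 943.3 units in irradiated and 279.1 units in control cells (1.76). Rad50, a component of the complex that tethers broken DNA ends, gave 562.0 units in irradiated and 216.6 units in control cells (1.38), and mre11, the nuclease of the same complex, 1171.5 units in irradiated and 722.1 units in control cells (0.70). RnrL, the large subunit of ribonucleotide reductase, gave 709.0 units in irradiated and 434.1 units in control cells (0.71). Gadd45, a stress sensor, gave 1727.2 units in irradiated and 1448.7 units in control cells (0.25). The lower one was Traf4, an adaptor of TNF receptor signalling, with 75.9 units in irradiated and 506.8 units in control cells, barely inside the signal limit.

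In the ecdysone-treated pair 5 of these 6 genes were at least 2-fold higher with irradiation, all but Traf4, and the median was 1.87. The Traf4 probe set used was below the floor on both arrays of that pair. Another probe set of Traf4, below the limit, read 63.7 units in the combined treatment and 297.3 units with ecdysone alone. Without hormone it was under the floor on both arrays. In that pair 14.6% of all 1566 genes were 2-fold higher and 9.13% 2-fold lower. Gadd45 read 2765.5 units in the combined treatment and 338.8 units with ecdysone alone. Its irradiated levels in the 2 pairs, 2765.5 and 1727.2 units, were closer than its levels in unirradiated cells, 338.8 units with ecdysone and 1448.7 units in control. RnrL, with 629.4 units in the combined treatment and 95.9 units with ecdysone alone, showed the same arrangement. Below 500 units without hormone, 4 of the other 8 genes read higher and 4 lower in irradiated cells. Ets21C, a transcription factor of the ETS family, read 493.1 units in irradiated and 171.7 units in control cells, and Hydr2 284.9 units in irradiated and 12.8 units in control cells. The gene Corp read 159.3 units in irradiated and 180.8 units in control cells, but 590.9 units in the combined treatment and 27.2 units with ecdysone alone. The TNF gene egr read 459.3 units in irradiated and 276.8 units in control cells, and Ku80, of end-joining repair, 403.3 units in irradiated and 289.9 units in control cells. The reaper-family gene skl read 109.9 units in irradiated and 182.2 units in control cells, near the floor on both arrays. The list had 17 genes, and rpr, hid and Xrp1 had no probe set of their own. The values of skl therefore do not show how rpr and hid behaved.

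**Figure D3:**
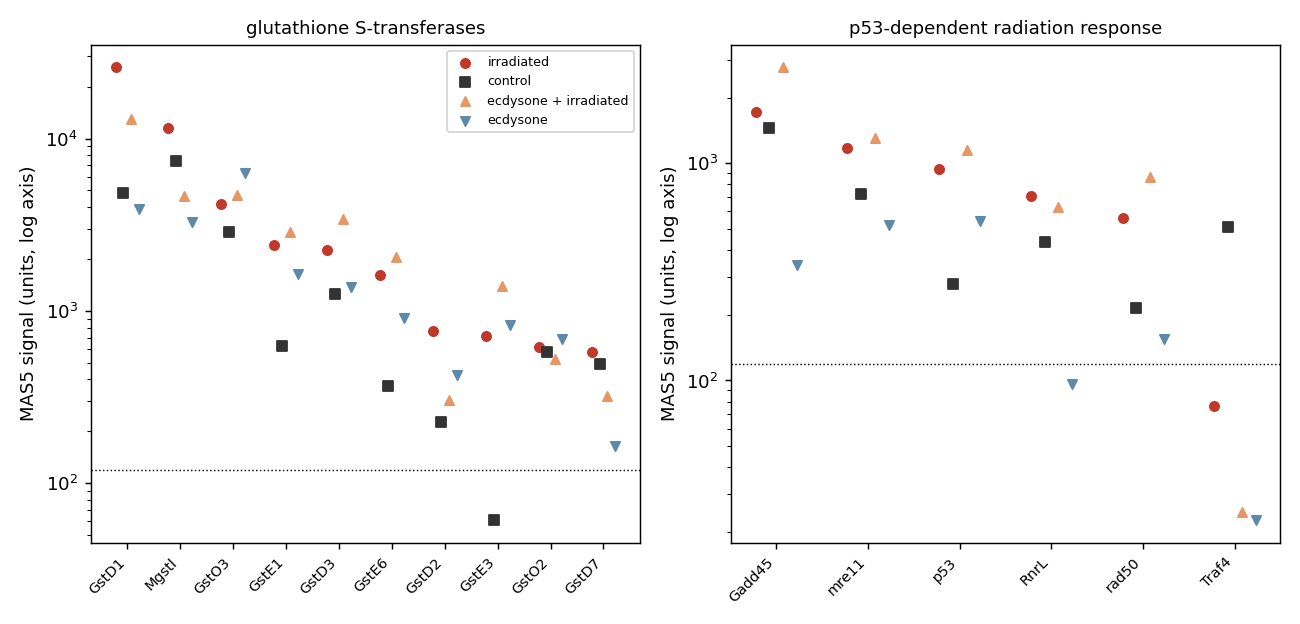
MAS5 signals (log axis) on all 4 arrays of the glutathione S-transferases (10 genes) and p53-dependent genes (6) that reached 500 units without hormone. Circles are irradiated, squares control, upward triangles ecdysone plus irradiation and downward triangles ecdysone alone, with the floor of 119 units dotted. The circle lies above the square for all 10 glutathione S-transferases.

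Of 30 genes of DNA damage signalling and repair, 4 reached the limit. Besides rad50 and mre11 these were PCNA, the sliding clamp, with 4397.4 units in irradiated and 3727.2 units in control cells (0.24), and the mismatch repair gene Msh6, with 112.1 units in irradiated and 666.2 units in control cells (at most -2.48). Of 29 listed cell death regulators 22 had a probe set of their own, and 2 of these were above the limit, p53 and Pdcd4 (-0.40). Of 6 genes for stress kinases and immediate responses, 2 were 2-fold higher (14.9% over all genes) and none 2-fold lower (14.1% over all genes). They were trbl, a pseudokinase that slows mitotic entry, with 1553.0 units in irradiated and 732.6 units in control cells (1.08), and bsk, the JNK kinase, with 584.9 units in irradiated and 263.7 units in control cells (1.15). The kinase gene PEK (0.89) and the ATF4 gene crc (2194.4 units in irradiated and 1539.8 units in control cells, 0.51) lay above 0, and Jra, which encodes Jun, was at -0.06. In the ecdysone-treated pair trbl was at 1.53 and bsk at -0.75.

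The proteasome and ubiquitin list held 29 genes, of which 4 were at least 2-fold higher and 2 at least 2-fold lower, with a median of 0.28. Over all 1566 genes 14.9% were 2-fold higher and 14.1% 2-fold lower, so the share of higher ones was near that of all genes. Apart from the polyubiquitin genes and Prosalpha4, the higher one was Prosalpha7, with 557.5 units in irradiated and 82.4 units in control cells (at least 2.23), although its other, dim probe set was under the floor on both arrays. Both lower ones belong to the regulatory particle that feeds substrates to the core. Rpt3 gave 276.0 units in irradiated and 782.9 units in control cells (-1.504), and Rpn8 278.5 units in irradiated and 575.9 units in control cells (-1.05). Among 15 heat shock and chaperone genes 1 was 2-fold higher, 1 was 2-fold lower and the median was -0.02. CCT7, a chaperonin subunit, gave 601.4 units in irradiated and 255.3 units in control cells (1.24), and the small heat shock gene Hsp26 311.6 units in irradiated and 746.8 units in control cells (-1.26). The other 13, among them Hsc70-4 (0.24), Hsc70-3 (-0.30) and Hsp60A (0.40), lay within 2-fold.

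Immune genes included several that were higher in irradiated cells. All 6 members of the list lay above 0, 3 of them at least 2-fold, with a median of 1.04. Over all 1566 genes 14.9% were 2-fold higher. Mtk, PGRP-LE and cact passed the limit on the irradiated array alone. For the 3 genes above it on both arrays the median was 0.97, and 1 of them was 2-fold higher. Of the 25 listed immune genes below the limit 11 read higher and 14 lower in irradiated cells. Mtk, the antimicrobial peptide metchnikowin, gave 536.7 units in irradiated and 102.0 units in control cells (at least 2.17), and AttD, an attacin, 2504.4 units in irradiated and 1519.0 units in control cells (0.72). PGRP-LE, an intracellular sensor of bacterial peptidoglycan, gave 701.2 units in irradiated and 221.2 units in control cells (1.66). Tep4, a thioester protein, gave 1589.1 units in irradiated and 813.8 units in control cells (0.97), and cact, the inhibitor of Toll signalling, was at 0.51. With ecdysone in both cultures the peptides had the opposite sign. Mtk read 5106.2 units in the combined treatment and 6755.4 units with ecdysone alone (-0.40), DptB was at -0.08 and AttD at -0.62, while PGRP-LE (1.52), Tep4 (1.81) and cact (0.87) stayed above 0.

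Among 14 genes of mitosis 2 were at least 2-fold lower and none 2-fold higher, a share of lower ones near the 14.1% of all genes. The median was -0.62 with 10 genes below 0, but 7 of the 14 passed the limit on the control array alone and none on the irradiated array alone. For the 7 above it on both arrays the median was 0.02, with 4 above and 3 below 0. Mps1, a kinase of the spindle checkpoint, gave 48.2 units in irradiated and 607.0 units in control cells (at most -2.35), and cid, the centromeric histone, 191.5 units in irradiated and 679.8 units in control cells (-1.83). CycB, the mitotic cyclin and one of the brightest of the list, gave 930.5 units in irradiated and 1440.1 units in control cells (-0.63), and 2 motor genes, Klp61F (-0.65) and Klp10A (-0.67), lay near it. The centralspindlin gene tum was at -0.95, the condensin gene SMC2 at -0.61 and Incenp at -0.82, while Bub3 (0.52) and feo (0.38) lay above 0. In the ecdysone-treated pair the median was -0.13, with CycB at -1.42, tum at -1.93 and Incenp at 2.05. Irradiated cells read lower for CycB and tum with and without hormone, and for Incenp only without it.

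Replication genes were split. Of 17 members none was 2-fold higher and 3 were 2-fold lower, a share of lower ones near the 14.1% of all genes, with a median of 0.01. All 3 lower ones passed the limit on the control array alone. The 12 genes above it on both arrays had a median of 0.07, and none of them was past 2-fold. PolA1, the catalytic subunit of the primer-making polymerase, gave 227.3 units in irradiated and 1182.8 units in control cells (-2.38). Caf1-180, a subunit of the histone chaperone of new DNA, gave 30.7 units in irradiated and 626.1 units in control cells (at most -2.40). The repressor E2f2 gave 49.6 units in irradiated and 509.6 units in control cells (at most -2.10). The 3 subunits of the single-strand binding protein were all higher by less than 2-fold, RPA1 at 0.65, RPA2 at 0.55 and RPA3 at 0.41, as was RfC4 of the clamp loader (3489.4 units in irradiated and 2589.3 units in control cells, 0.43). E2f1 was at 0.00, Mcm2 at -0.32 and Mcm3 at -0.38. Of the chromatin list 6 genes were above the limit, none past 2-fold, and the largest was the histone variant His2Av, with 5791.8 units in irradiated and 3410.7 units in control cells (0.76).

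Housekeeping lists lay close to 0. For the counts below, 14.9% of all 1566 genes were 2-fold higher and 14.1% 2-fold lower. Of 25 cytosolic ribosomal protein genes none passed 2-fold, 23 lay above 0, and the ratios ran from -0.33 (RpS28b) to 0.77 (RpL28) with a median of 0.24. After quantile normalization the median of these genes was 0, so that 23 of 25 above 0 holds for the deposited scaling. Of 23 translation factors 2 were 2-fold higher, eIF3g1 (978.9 units in irradiated and 446.0 units in control cells, 1.13) and eIF6, which keeps ribosomal subunits apart (987.2 units in irradiated and 426.9 units in control cells, 1.21). The 2-fold lower one was eIF3l (432.4 units in irradiated and 1035.7 units in control cells, -1.26), so that 2 subunits of the same initiation factor differed in opposite directions. Of 42 genes of the respiratory chain and ATP synthase 3 were 2-fold higher and none 2-fold lower, with a median of 0.16 (-0.007 after quantile normalization). ATPsynF gave 1775.4 units in irradiated and 352.8 units in control cells (2.33), ATPsynepsilonL 546.9 units in irradiated and 215.4 units in control cells (1.34) and ND-ASHI 598.8 units in irradiated and 278.9 units in control cells (1.10). Of 5 glycolysis genes Pglym78 was 2-fold lower, with 186.1 units in irradiated and 802.8 units in control cells (-2.11). Gapdh1 was at 0.94, and the three-prime to five-prime ratio of this transcript also differed, as given above.

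**Figure D4:**
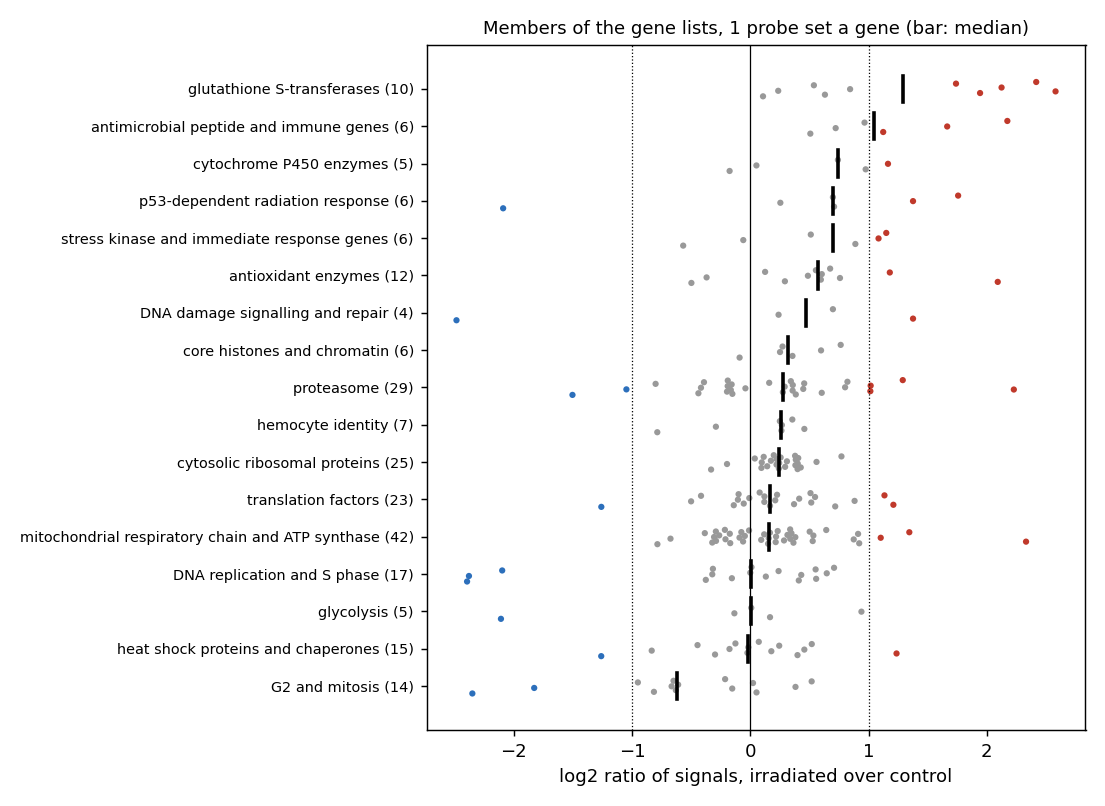
Log2 ratios (irradiated over control) of the genes in each list with 4 or more members, 1 point a gene and the number of genes in brackets, without the lists chosen after values were seen. Black bars are medians, dotted lines 2-fold. In the lists plotted the medians run from 1.29 for glutathione S-transferases to -0.62 for mitosis genes (0.74 and 0.02 for those above the limit on both arrays), and most points of the larger lists lie between the dotted lines.

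Of 25 hemocyte genes 15 were above the floor in irradiated and 16 in control cells, as were 8 in irradiated and 9 in control cells of 12 epidermis markers. The floor is near the array median, so that 49.9% of all probe sets in irradiated and 50.4% in control cells lay above it. The summed hemocyte signal was 28479.2 units in irradiated and 26267.3 units in control cells. The difference in Nplp2 alone was larger than that of the sums. Of the 18 hemocyte genes below the limit 5 read higher and 13 lower in irradiated cells. The 7 above the limit all lay within 2-fold, among them Nplp2 (14941.8 units in irradiated and 10888.3 units in control cells, 0.46), SPARC (-0.29), Hml, the clotting protein hemolectin (1109.7 units in irradiated and 922.6 units in control cells, 0.27) and Pxn (0.25). The receptor genes NimC1 and crq were below the floor on both arrays. None of 16 neuron markers reached 500 units. Their summed signal was 2394.4 units in irradiated and 2415.2 units in control cells. Of the muscle, fat body, germline and epidermis markers 1 gene each reached it. These were Act79B (0.10), Lsp2 (152.4 units in irradiated and 585.8 units in control cells, -1.94), tud (-0.80) and Cht2 (652.0 units in irradiated and 180.4 units in control cells, 1.85).

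The pair with ecdysone in both cultures shares no array with the pair that chose the probe sets. Of the 270 probe sets that were 2-fold higher without hormone, 77 (28.5%) were also at least 2-fold higher there, against 14% of all 1904 probe sets, and 31 (11.5%) were at least 2-fold lower, against 8.77% of all. Of the 251 that were 2-fold lower, 41 (16.3%) were also 2-fold lower, against 8.77% of all, and 33 (13.1%) were 2-fold higher. The shares were largest for bright transcripts that were higher. Of 57 probe sets that were 2-fold higher and read at least 1000 units on the brighter array, 30 (52.6%) were 2-fold higher in the second pair, against 13.0% of all 602 probe sets of that brightness, and 50 lay above 0, against 69.4% of the 602. Another 2 of the 57 (3.51%) were 2-fold lower there, against 3.49% of the 602. Of the 18 that were 2-fold lower at this brightness, 3 (16.7%) were 2-fold lower in the second pair, against 3.49% of the 602, and 7 (38.9%) lay below 0, against 30.6% of the 602. Of these 18, 1 was 2-fold higher there. Across all 1904 probe sets, which share arrays and are not independent replicates, the 2 ratios had a Pearson r of 0.17, and across the 602 brighter ones 0.39.

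**Figure D5:**
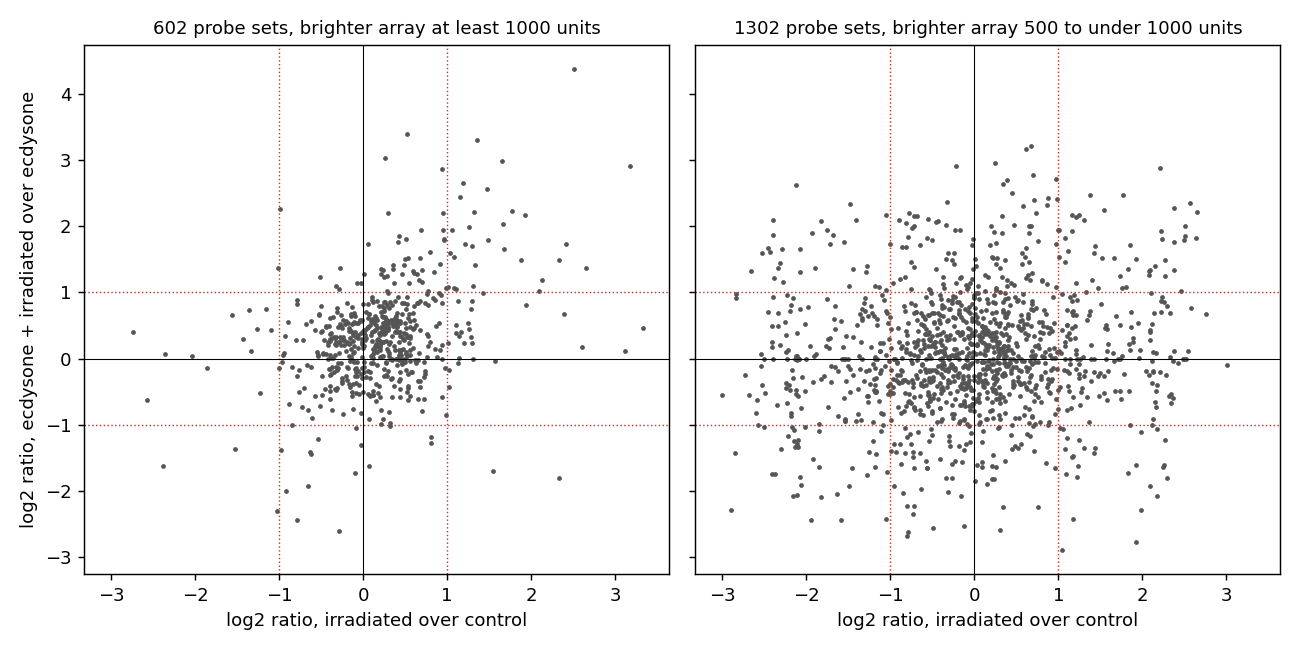
Log2 ratio with ecdysone in both cultures (combined treatment over ecdysone, vertical) against the ratio without hormone (irradiated over control, horizontal), for the 602 probe sets with at least 1000 units on the brighter array (left) and the 1302 dimmer ones (right). Dotted lines mark 2-fold. On the left the points right of 1 lie mostly above 0 (50 of 57), and on the right they spread to both sides.

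Several bright transcripts that were 2-fold higher in both pairs were picked after their values were seen. The tetraspanin gene Tsp42Ed gave 3410.2 units in irradiated and 997.7 units in control cells, and 8161.4 units in the combined treatment and 1730.2 units with ecdysone alone. CG10916 gave 2729.7 units in irradiated and 971.4 units in control cells, and 3203.1 units in the combined treatment and 927.9 units with ecdysone alone. On both, each irradiated array was above each unirradiated one. The same held for kek1, a transmembrane inhibitor of the EGF receptor (1.26 without and 1.99 with ecdysone), Arc2, a relative of retrotransposon capsid proteins (1.19 and 2.66), and CG2909 (1.65 and 2.99). ImpL2, a secreted antagonist of insulin signalling, was at 1.43 without and 0.99 with ecdysone. Among the 2-fold lower ones of similar brightness, CD98hc, the heavy chain of amino acid transporters, gave 347.8 units in irradiated and 1000.7 units in control cells, and 306.1 units in the combined treatment and 790.7 units with ecdysone alone.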

How the data were processed

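Total RNA was labelled with biotin and hybridized to DrosGenome1 arrays. The deposited values are signal intensities on a linear scale that the authors made with MAS5, per the submitters' processing notes. Its version was not given in the sources used here. The trimmed mean, without the highest and lowest 2% of signals, was 200.0 units on each of the 4 arrays. Array settings (other values: wash station, module, chip lot) came from the deposited instrument files. The deposited signals were used without further scaling. Of 14010 probe sets, 44 controls were left out. Signals below 119 units, the median of all non-control signals in whole units, were raised to it before log2 ratios were taken. Of the 1904 probe sets analysed, 1603 had 1 gene symbol, 50 several and 251 none. Of these symbols 1599 were brought up to date by gene identifier (RefSeq, Release 6 plus ISO1 MT) and 4 kept, giving 1566 genes. A gene was read from whichever of its probe sets was brightest on average over the 2 arrays. Names in the platform annotation can be old.

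With 1 array a condition no test between conditions was made. A 2-fold difference is a size rule. The number of arrays limits the precision. Named genes were the 15 highest and 15 lowest ratios, the 10 highest and 10 lowest among genes with at least 1000 units on both arrays, list members past 2-fold, and all members of the glutathione S-transferase and p53 lists. Others were chosen after their values were seen. The probe sets, the gene lists and these rules were chosen with earlier results of these data known. The calculation of the size rule was checked on simulated data with less scatter than the dim probe sets here. It gives no error rate for these arrays. Python 3.11.15, numpy 2.4.6, pandas 2.3.3 and statsmodels 0.14.6 were used. Alternatives were median scaling, quantile normalization, lowess centring, other floors, signal limits and folds, 1 probe set a gene, and leaving out less specific probe sets (this last chosen after seeing the data). The reference for the lowess curve was also changed after its first counts were seen, and both versions are given.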

Additional observations from a re-analysis of the deposited data

Results flagged for a closer look

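For 5 of the 91 named genes the irradiation ratio was at least 2-fold in 1 direction without ecdysone and at least 2-fold in the other with it, and this difference was not tested. CCT7 had a log2 ratio of 1.24 without and -1.63 with ecdysone. ND-ASHI, a complex I subunit, was at 1.10 without and -1.20 with ecdysone. CRAT, which encodes carnitine acetyltransferase, was at -2.66 without and 1.33 with ecdysone, png at -2.52 without and 1.59 with it, and Rpn8 at -1.05 without and 1.03 with it. All 5 had signals under 1000 units on all 4 arrays, and for CRAT, png, CCT7 and Rpn8 at least 1 of the 4 signals lay under the floor. Reversals were not confined to dim transcripts. Octbeta3R, outside the 91, gave 1133.0 units in irradiated and 225.0 units in control cells (2.33), and was at -1.81 with ecdysone. The gene aspr gave 1001.1 units in irradiated and 343.4 units in control cells (1.54), and was at -1.70 with ecdysone.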

How the results depend on the processing

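No paired analysis was possible because each condition has 1 array. Quantile normalization, median scaling, a floor of 60 or 250 units or none, 1 probe set a gene, and leaving out less specific probe sets kept both 2-fold counts within 1.5 times of 270 higher and 251 lower. The floors could not move them, since a 2-fold difference from 500 units ends at or above 250. Lowess centring with the curve from all probe sets above the floor shifted the median ratio by -0.11, with 263 higher and 252 lower. The curve was first drawn through the 1904 analysed probe sets alone, which gave 286 higher and 87 lower, and the wider one was adopted after these counts were seen, since a lower limit on the brighter signal shapes the curve at low intensity. The lower count therefore depends on this choice. The signal limit moved the counts most. At 250 units on at least 1 array there were 1205 higher and 1281 lower of 5512 probe sets. At 1000 units on at least 1 array there were 57 higher and 18 lower of 602, and at 500 units on both arrays 38 higher and 8 lower of 1003, so the higher share of these calls was 76.0% and 82.6%, against 51.8% in the rule used. A 1.5-fold rule gave 466 higher and 416 lower, and a 3-fold rule 125 higher and 132 lower. Of the counts shared with the ecdysone-treated pair, the lower one was 20 with a floor of 250. At 1.5-fold 178 higher and 112 lower were shared, and at 3-fold 21 higher and 12 lower. No named gene past 2-fold changed sign under the alternatives run, but some no longer passed it. Under quantile normalization these were DptB (0.93), Nfs1 (0.82), Prosalpha4 (0.85) and Ubi-p63E (0.87), while SC35 (-1.02) came to pass it, and under median scaling Prosalpha4 (0.995) and Ubi-p63E (0.992). Of the 263 abundant genes 7 were higher and 2 lower, and 3 higher and 3 lower under quantile normalization and both lowess curves (chosen after seeing the data). A floor of 250 moved 34 of the 91 named genes by more than 0.51, all of them with a signal under 250 units on 1 array. Averaging the probe sets of a gene brought CG13674 to -0.67.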

Other observations

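Genes of iron-sulfur cluster assembly were looked at after Nfs1 was seen among the bright transcripts. The values of both pairs were known by then, so their count in either pair is no independent support. Of 12 such genes with a probe set of their own, 6 reached 500 units, and 3 of these were at least 2-fold higher in irradiated cells and none 2-fold lower. Over all 1566 genes 14.9% were 2-fold higher and 14.1% 2-fold lower. Only Nfs1 passed the limit on both arrays. CIAPIN1, Nubp1, IscU and Nubp2 passed it on the irradiated array alone, and Fdx2 on the control array alone. CIAPIN1, of the cytosolic assembly pathway, gave 1120.2 units in irradiated and 458.4 units in control cells (log2 ratio 1.29), and Nubp1, a scaffold of the same pathway, 504.9 units in irradiated and 175.5 units in control cells (1.52). The scaffold gene IscU (0.87) and Nubp2 (0.70) lay above 0 and the ferredoxin gene Fdx2 (-0.93) below it. In the ecdysone-treated pair 5 of the 6 were at least 2-fold higher, from 1.06 for Nfs1 to at least 2.77 for Nubp2, and Fdx2 was 2-fold lower (-1.41). In that pair 14.6% of all 1566 genes were 2-fold higher and 9.13% 2-fold lower. The frataxin gene fh, under 500 units, read 40.0 units in irradiated and 293.8 units in control cells, and 24.0 units in the combined treatment and 360.3 units with ecdysone alone.

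Genes of transfer RNA ligation and wobble base modification were likewise chosen after values of both pairs were seen. Of 10 with a probe set of their own 4 reached 500 units. RtcB, the RNA ligase, gave 1661.6 units in irradiated and 863.7 units in control cells (0.94), and Archease, its activating partner, 539.0 units in irradiated and 161.6 units in control cells (1.74). Elp4 of the Elongator complex (at least 2.08) and the thiolation gene Ctu2 (1.08) were also higher. Archease, Elp4 and Ctu2 passed the limit on the irradiated array alone, and RtcB on both arrays. All 4 were at least 2-fold higher in the ecdysone-treated pair, RtcB at 2.20, against 14.6% of all 1566 genes there. Since that pair was also seen before the choice, this count is no independent support. The other Elongator genes measured, Elp2, Elp3, Elp5 and Elp6, were under 500 units, and 3 of them had ratios below 0, from -0.48 to -0.96.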
